A study of Mus musculus with 6 samples.

Results

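The subunits of oxidative phosphorylation (OXPHOS), encoded by the nuclear and the mitochondrial genome, were examined in RNA-seq of WATs from 3 control mice and 3 Ntsr2 AKO mice. Genes were chosen by symbol. They were the Ndufa, Ndufb, Ndufc, Ndufs and Ndufv genes of complex I, Sdha to Sdhd of complex II, the Uqcr genes of complex III, the Cox4 to Cox8 genes of complex IV, the Atp5 genes of complex V and the protein genes of the mitochondrial genome. Of 96 rows that carry such a symbol, Cox7a1 and Cox8b were left out by name and the pseudogene Atp5l-ps1 had a mean normalized count under 10. The remaining 93 genes, 80 nuclear and 13 mitochondrial, were members among the 21456 genes of the table, and all 93 were tested. The symbols also take in relatives that are not core subunits, such as Ndufa4l2, Atp5s and Atp5sl. Atp5s and Atp5sl, listed in RefSeq as Dmac2l and Dmac2, were counted in complex V by symbol alone. The symbols miss Ndufab1, the acyl carrier protein of complex I, and Cyc1, the cytochrome c1 of complex III.

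The control mice carried Ntsr2 flox/flox alleles and no Cre, and the Ntsr2 AKO mice carried the same alleles with Adipoq-cre, which is active in adipocytes. Both groups were fed a chow diet. The labels give the tissue as adipose and name neither age nor fat depot. WAT also holds vessels, blood and immune cells, in which this Cre leaves Ntsr2 in place. In whole tissue, fewer cells of a type and less RNA per cell cannot be told apart.

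OXPHOS passes electrons from NADH through complex I, or from succinate through complex II, to complex III, cytochrome c and complex IV, and complex V makes ATP from the proton gradient that this creates. Mitochondrial DNA supplies hydrophobic core subunits of every complex except complex II, while all other subunits come from nuclear genes and are imported. The mitochondrial genes are transcribed as long polycistronic RNAs that are then cut. White adipocytes hold fewer mitochondria than brown adipocytes, and use them for fatty acid oxidation and for the precursors of lipid synthesis.

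Expression is given as the normalized count, the reads of a gene after division by each mouse's size factor. Recovered totals ran from 60405373 to 66098226 reads in control mice and from 54085088 to 56268725 reads in Ntsr2 AKO mice. Ntsr2 itself was at 83.8, 64.0 and 152.5 in control mice and at 3.10, 8.29 and 0 in Ntsr2 AKO mice. All 10 white adipocyte markers were present in every mouse, with a summed normalized count between 2877654 and 4082633. Skeletal muscle transcripts set control 5 apart, since the summed level of 20 muscle markers was 3374, 3318 and 3428229 in control 3, 4 and 5 and 3929, 111548 and 244700 in Ntsr2 AKO 3, 4 and 5. In control 3, control 4 and Ntsr2 AKO 3, 6, 6 and 7 of these markers were at 0. Ucp1, the uncoupling protein that defines brown adipocytes, stood between 0 and 55.7 in all mice.

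Per kilobase of transcript, mitochondrial mRNAs stood far above the nuclear ones. The median over the 13 mitochondrial genes was 500161 normalized counts per kilobase and that over the 80 nuclear genes 9944. The lowest mitochondrial gene, mt-Nd5, had 161698 per kilobase, still above the highest nuclear gene, Cox4i1, which had 59923. The most abundant mRNA of all members was mt-Co1, the catalytic subunit of complex IV, with 1575147 ± 446243 per kilobase in control and 1507249 ± 133726 in Ntsr2 AKO mice (SD, n = 3 each). Among nuclear members of the other complexes, grouped by symbol, Ndufa4 (46848 per kilobase), Sdha (14712), Uqcrq (32470) and Atp5b (49256) were the highest in complexes I, II, III and V. Ndufa4 is now placed in complex IV, and the next in complex I was Ndufb9 with 19572. The lowest nuclear member was Cox4i2, an isoform known from lung, with 101.1 per kilobase. The length behind each value is that of 1 annotated transcript, so a gene that uses another transcript would be placed elsewhere.

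**Figure D1:**
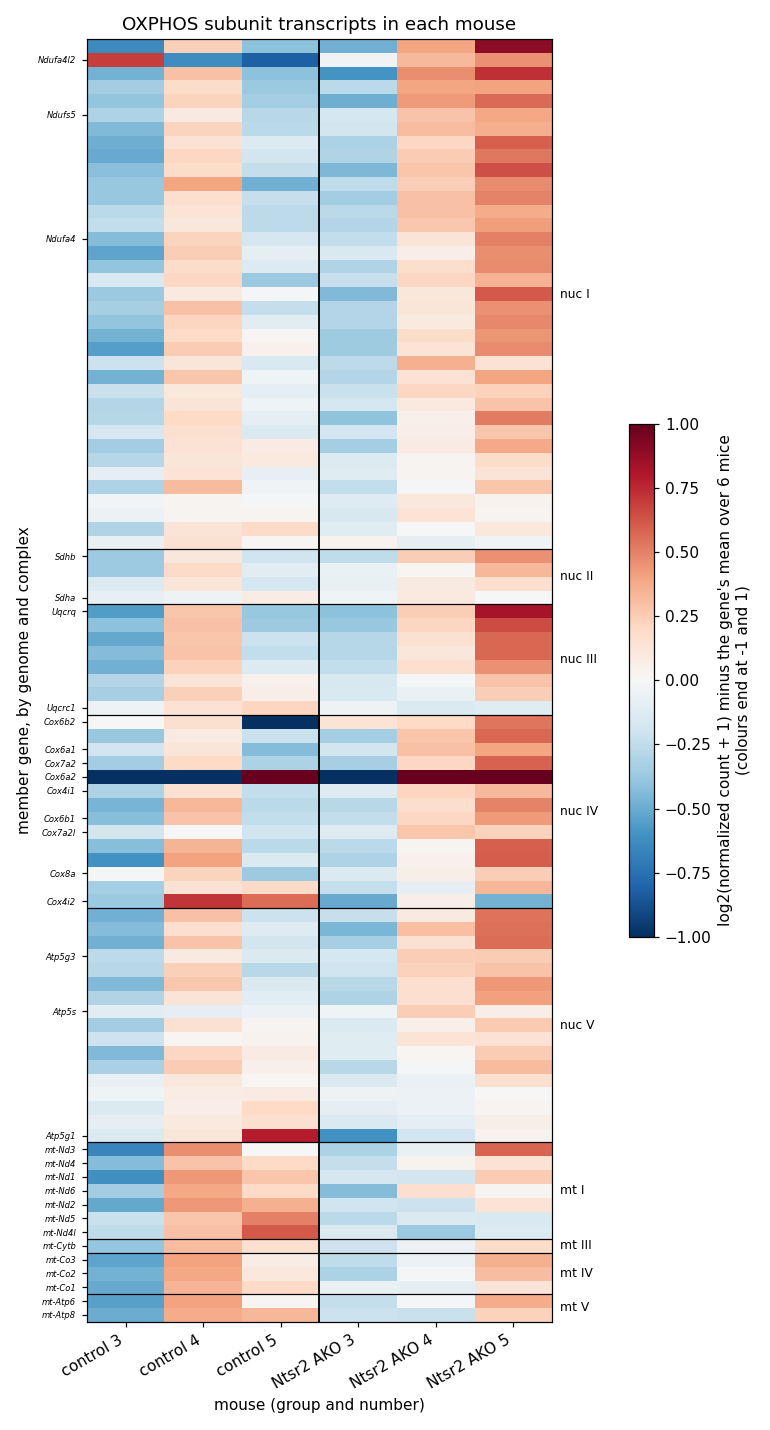
Heat map of the 93 members (rows, ordered by genome, complex and fold change, with labels for members named by rule and for Atp5s) in the 6 mice (columns); colour gives log2(normalized count + 1) minus the gene's mean over the 6 mice and ends at -1 and 1. Control 3 and Ntsr2 AKO 3 are below the mean in 78 of 80 nuclear rows each, and Ntsr2 AKO 5 is above it in 77.

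The first question was whether loss of Ntsr2 in adipocytes changed the level of any subunit. None of the 93 members passed an adjusted p of 0.05 in limma, in edgeR's quasi-likelihood test or in DESeq2, and none had an unadjusted p under 0.05 in any of these. Over all 16157 genes tested, limma called 1 gene (0.00619%) and gave an unadjusted p under 0.05 to 1349 (8.35%), and DESeq2 called 219 (1.36%). The smallest p among members was that of Atp5g1 (adjusted p = 0.644 by limma). In 2 members, Uqcrc1 and Atp5s, the values of the groups did not overlap, which is 2.15% of members against 15.0% of all genes. The difference between the groups was smaller than the within-group SD in 79 of 93 members (84.9%), as in 10141 of all genes (62.8%). The precision was low for single genes, as the 95% interval of a member's log2 fold change reached 0.57 to either side at the median.

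The sign of the difference was uneven between the genomes. Of the 80 nuclear members, 71 had a higher mean log2 level in Ntsr2 AKO mice (70 by the fits of edgeR and DESeq2, in which Cox6a2 was lower), and the median log2 fold change was 0.21, against -0.01 over all genes. Among the 16157 genes tested, 49.0% had a higher mean. The tilt was not particular to OXPHOS subunits. A higher mean was also seen for 75 of 86 cytosolic ribosomal protein genes (87.2%), with a median log2 fold change of 0.13. That list was chosen after the values were seen. Of the 13 mitochondrial members, 10 had a lower mean in Ntsr2 AKO mice, with a median of -0.05. That sign did not hold under every scaling, since the mitochondrial median was 0.03 after quantile normalization and 0.05 when reads were scaled by the total of the nuclear genes, which moved the median of all genes to 0.05 and 0.09. The nuclear median was 0.29 and 0.31 under the same settings. By complex the nuclear medians were 0.19 for complex I (35 of 37 higher), 0.15 for complex II (4 of 4), 0.26 for complex III (7 of 8), 0.26 for complex IV (13 of 14, Cox6a2 included) and 0.11 for complex V (12 of 17). These medians rest on few mice. Without Ntsr2 AKO 5 the nuclear median was 0.05, with 52 of 80 higher, and without control 3 it was 0.08, with 54 of 80 higher. Without control 5 alone it was 0.19, with 70 of 80 higher. Without control 5, Ntsr2 AKO 4 and Ntsr2 AKO 5, the 3 mice with the most muscle transcripts, it was -0.18, with 4 of 80 higher. That leaves 2 mice against 1.

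**Figure D2:**
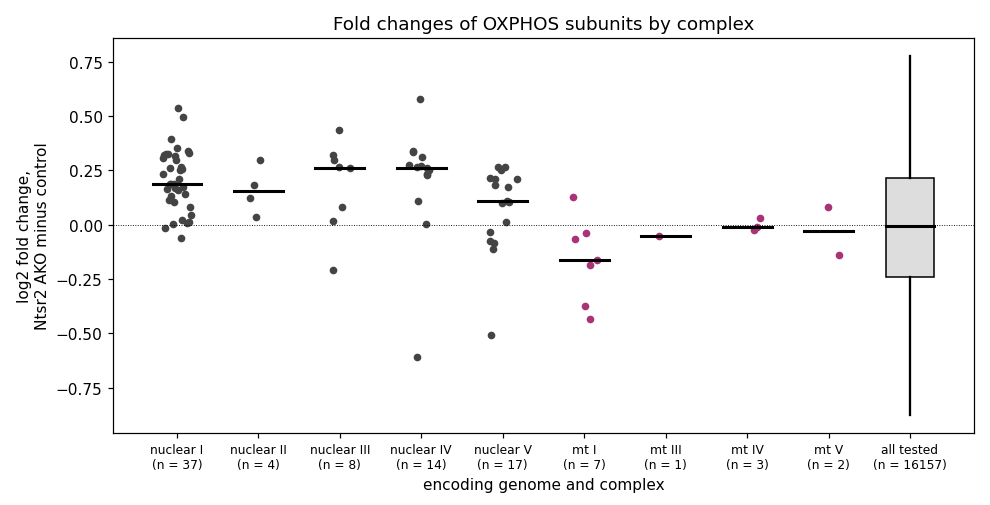
Log2 fold change (Ntsr2 AKO minus control, vertical axis) of each member, a point, by genome and complex; thick bars are medians, and the box at the right gives the quartiles and 5th to 95th percentiles of all 16157 genes. Nuclear medians lie between 0.11 and 0.26 and mitochondrial ones between -0.16 and -0.01, where the quartiles of all genes are -0.24 and 0.21. The sign of 5 mitochondrial genes turns after quantile normalization and that of 5 when reads are scaled by the nuclear total.

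Complex I, the NADH dehydrogenase, has the most members. Ndufs5, an accessory subunit on the intermembrane side, had the smallest p of the complex I subunits with a higher mean. Its normalized counts were 4677, 6159 and 4765 in control mice and 5121, 7037 and 7578 in Ntsr2 AKO mice. Control 4 lay above Ntsr2 AKO 3, so the groups overlapped, and the log2 fold change was 0.33 (standard error, SE, 0.19, adjusted p = 0.668 by limma). Ndufa1, which is needed for assembly of the membrane arm, had one of the wider spreads, with 2316, 4229 and 2701 in control mice and 2579, 4716 and 6678 in Ntsr2 AKO mice. It was named after its values were seen, and its log2 fold change of 0.54 (SE 0.38) was below its within-group SD of 0.59. Several core subunits lay closer to 0. Ndufv1, which binds FMN and oxidises NADH, was at 8540, 8883 and 8636 in control mice and at 7981, 9349 and 8952 in Ntsr2 AKO mice. The log2 fold change was 0.01, with a 95% interval from -0.25 to 0.27. Ndufs1 and Ndufs7, also core subunits chosen after their values were seen, had log2 fold changes of 0.05 and 0.00233.

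Complex II, succinate dehydrogenase, is made from nuclear genes alone and also serves the TCA cycle. Sdha, its flavoprotein, was the steadiest of the 4, with 40323, 41199 and 44863 in control mice and 41309, 45554 and 42746 in Ntsr2 AKO mice. Its log2 fold change was 0.04, with a 95% interval from -0.27 to 0.35. Sdhb, the iron-sulphur subunit, was at 9247, 12893 and 10411 in control mice and at 9994, 14154 and 16352 in Ntsr2 AKO mice (a log2 change of 0.30 with an SE of 0.22, adjusted p = 0.727 by limma). In Sdhb 2 Ntsr2 AKO mice lay above every control mouse, and Ntsr2 AKO 3 lay below 2 of them.

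In complex III, the cytochrome bc1 complex, Uqcrc1 and Uqcrq had fold changes of opposite sign. Uqcrc1, a core protein of the matrix side on chromosome 9 (GRCm38, chr9:108936633-108949623, plus strand), was at 15522, 17786 and 18640 in control mice and at 15516, 14564 and 14814 in Ntsr2 AKO mice. All Ntsr2 AKO values were below all control values, but control 3 and Ntsr2 AKO 3 were nearly level. The log2 fold change was -0.21 (SE 0.12, adjusted p = 0.675 by limma). Uqcrq, a small subunit, was at 8435, 15028 and 9539 in control mice and at 9318, 14680 and 21901 in Ntsr2 AKO mice. Ntsr2 AKO 5 alone was higher than control 4, and the log2 fold change of 0.44 (SE 0.35) was below the within-group SD of 0.54. Uqcrfs1, the Rieske iron-sulphur protein, and Uqcrc2, the other core protein, had log2 fold changes of 0.08 and 0.02.

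Complex IV, cytochrome c oxidase, holds most of the subunits that exist as tissue isoforms. Cox4i1, the common form of subunit 4, was at 35519, 48914 and 37057 in control mice and at 40195, 51051 and 55119 in Ntsr2 AKO mice (a log2 change of 0.27 with an SE of 0.20, adjusted p = 0.727 by limma). Its lung isoform Cox4i2 was at 53.4, 114.5 and 102.6 in control mice and at 48.5, 72.6 and 49.6 in Ntsr2 AKO mice, the lowest fold change among members (a log2 change of -0.61 with an SE of 0.41, adjusted p = 0.701 by limma). Both overlapped between the groups. Cox7a2l, which helps to join complexes III and IV into supercomplexes, had the smallest p among members of complex IV that were higher, with 6051, 6896 and 5997 in control mice and 6285, 8349 and 8090 in Ntsr2 AKO mice (a log2 change of 0.25 with an SE of 0.15, adjusted p = 0.666 by limma). Cox6b2, an isoform known from testis, was at 89.3, 100.1 and 43.2 in control mice and at 98.1, 102.6 and 129.5 in Ntsr2 AKO mice. Its common counterpart Cox6b1 ran from 9559 to 17298 over all mice, at a log2 fold change of 0.26 (SE 0.24).

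Cox6a2, the form of subunit 6a found in heart and skeletal muscle, varied more than any other member. It was at 0, 14.4 and 4479.9 in control mice and at 0, 316.1 and 386.6 in Ntsr2 AKO mice. The 3 mice with the highest values, control 5, Ntsr2 AKO 5 and Ntsr2 AKO 4, were also those with the highest sum of skeletal muscle markers, and in the same order. The part of muscle tissue in this result was not tested, and the 3 other mice had 0 to 14.4. The log2 fold change was 0.28 with an SE of 3.50 in limma, -2.65 in edgeR and -2.67 in DESeq2, which gave no p for this gene, so the sign depended on the method. Cox7a1 and Cox8b, the muscle and brown fat forms outside the rule, showed the same order less steeply or not at all. Cox7a1 was at 101.2, 189.8 and 780.9 in control mice and at 86.7, 234.3 and 375.5 in Ntsr2 AKO mice, again highest in control 5, Ntsr2 AKO 5 and Ntsr2 AKO 4. Cox8b was at 1281, 2960 and 3164 in control mice and at 1891, 2592 and 4502 in Ntsr2 AKO mice, and was thus well expressed also where muscle markers were scarce. The common forms Cox6a1, Cox7a2 and Cox8a did not peak in control 5. Cox6a1 was at 23689, 29448 and 20042 in control mice and at 23884, 33197 and 35526 in Ntsr2 AKO mice, with control 5 the lowest of all. Cox7a2 ran from 5297 to 10172 and Cox8a from 21033 to 32132, and log2 fold changes were 0.31 (SE 0.26) and 0.11 (SE 0.19). Ndufa4, named for complex I and now placed in complex IV, ran from 15269 to 29363 (a log2 change of 0.26 with an SE of 0.25), and its hypoxia-induced relative Ndufa4l2 from 152.5 in control 5 to 434.4 in control 3.

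**Figure D3:**
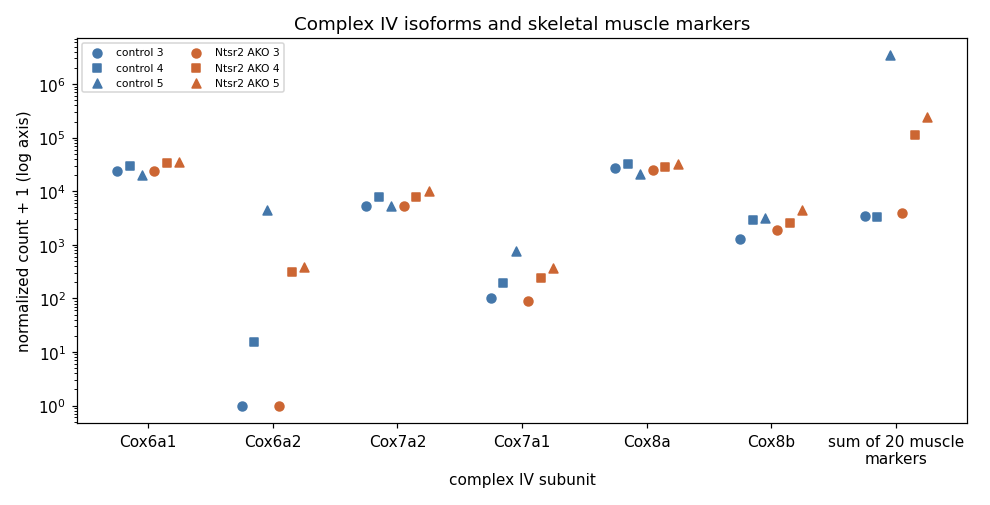
Normalized count + 1 (log axis) of common and tissue-restricted complex IV isoforms and the sum of 20 skeletal muscle markers in each of the 6 mice; colour gives the group (blue, control; orange, Ntsr2 AKO) and marker shape the number of the mouse. Cox6a2 follows the muscle marker sum, with 4479.9 in control 5, while Cox6a1 stays between 20042 and 35526 in all mice.

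In complex V, the ATP synthase, the catalytic subunits were among the steadiest members. Atp5b, the beta subunit and the most abundant nuclear member by normalized count, was at 91485, 99179 and 99696 in control mice and at 90794, 90334 and 94759 in Ntsr2 AKO mice (a log2 change of -0.07, 95% interval -0.44 to 0.29). Atp5a1, the alpha subunit, had a log2 fold change of -0.08. Atp5s, a coupling factor-like protein, was at 404.0, 409.6 and 420.2 in control mice and at 423.2, 517.2 and 456.4 in Ntsr2 AKO mice. Its groups did not overlap, yet the log2 fold change of 0.17 had an SE of 0.16 (adjusted p = 0.781 by limma), and the gene was named after its values were seen.

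Atp5g1, Atp5g2 and Atp5g3 encode the same mature c subunit of the proton-driven ring with different import peptides, and their log2 fold changes were -0.51, 0.11 and 0.21. Atp5g1 (chr11:96068852-96075670, minus strand, GRCm38) was at 2377, 2852 and 4512 in control mice and at 1722, 2301 and 2693 in Ntsr2 AKO mice. Control 5, the mouse with the most muscle transcripts, was the highest, and Ntsr2 AKO 5 lay above control 3. The SE of its log2 fold change was 0.27 (95% interval -1.16 to 0.14), and without control 5 the change was -0.24. Atp5g3, by contrast, had the smallest p among the higher members of complex V, with 14910.4, 18999 and 16171 in control mice and 15797, 21248 and 21284 in Ntsr2 AKO mice (a log2 change of 0.21 with an SE of 0.17, adjusted p = 0.750 by limma). As a share of the summed normalized counts of the 3 genes, Atp5g1 made up 10.7%, 10.3% and 17.0% in control mice and 7.56%, 7.71% and 8.88% in Ntsr2 AKO mice. The groups did not overlap, also with control 5 left aside. This share was computed after the values were seen and was not tested. In 15.0% of all genes the normalized counts of the groups did not overlap either.

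The 13 mitochondrial protein genes lie close together on their genome. Reads from neighbours cannot be fully separated where reading frames overlap, and counting was not stated to use the strand. Reads of RNA from the opposite strand may therefore be counted anywhere along mt-Nd6, which alone lies on the minus strand. In the reference mt-Atp6 and mt-Co3 share 1 base (chrM:8607). The 3 longer overlaps are shown with the start codon of the downstream gene and the stop codon of the upstream gene in capitals, and for the antisense pair with both stop codons in capitals.
mt-Atp8 and mt-Atp6, chrM:7927-7969, plus strand: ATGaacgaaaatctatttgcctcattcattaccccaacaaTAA
mt-Nd4l and mt-Nd4, chrM:10167-10173, plus strand: ATGcTAA
mt-Nd5 and mt-Nd6, chrM:13552-13565, printed on the plus strand, mt-Nd6 lying on the minus strand: TTAatctcgagTAA

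Together the mRNAs of these genes took 7.94%, 12.6% and 11.2% of the recovered reads in control mice and 9.70%, 10.4% and 12.3% in Ntsr2 AKO mice. The means were 10.6% ± 2.40 and 10.8% ± 1.33 (SD, n = 3 each). The library preparation selected polyadenylated RNA, so these shares cover mRNAs that carry such a tail. The difference of 0.20 percentage points was far below the range within control mice, 4.69 points. Control 3 was the lowest in 10 of the 13 genes and control 4 the highest in 10.

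mt-Nd4l, a small membrane subunit of complex I whose reading frame overlaps that of mt-Nd4, had the smallest p among the mitochondrial genes. It was at 53309, 77984 and 97448 in control mice and at 57612, 49233 and 57896 in Ntsr2 AKO mice, so that control 3 lay among the Ntsr2 AKO mice. The log2 fold change was -0.43 (SE 0.24, 95% interval -1.01 to 0.15, adjusted p = 0.661 by limma), and without control 5 it was -0.24. mt-Nd5, a proton-pumping subunit, was at 248143, 350797 and 408835 in control mice and at 240194, 261900.4 and 259752 in Ntsr2 AKO mice (a log2 change of -0.37 with an SE of 0.27, adjusted p = 0.727 by limma), and without control 5 the log2 change was -0.22. The other mitochondrial complex I genes were closer to 0, with log2 fold changes of -0.18 for mt-Nd2, -0.16 for mt-Nd6, -0.07 for mt-Nd1, -0.04 for mt-Nd4 and 0.13 for mt-Nd3. mt-Nd3 had the smallest p among the higher mitochondrial genes (adjusted p = 0.934 by limma), with 34935, 76183 and 55532 in control mice and 44376, 52597 and 82692 in Ntsr2 AKO mice.

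mt-Cytb, the only mitochondrial gene of complex III, was at 571658, 928969.9 and 835051 in control mice and at 648942, 719585 and 852498 in Ntsr2 AKO mice (a log2 change of -0.05 with an SE of 0.36). The complex IV genes mt-Co1, mt-Co2 and mt-Co3 had log2 fold changes of -0.02, -0.01 and 0.03, and the complex V genes mt-Atp8 and mt-Atp6 of -0.14 and 0.08. The standard errors of these 5 lay between 0.29 and 0.54. The direction of mt-Co1, mt-Co2, mt-Cytb, mt-Nd1 and mt-Nd4 turned positive when reads were scaled by the total of the nuclear genes alone, and that of mt-Nd2, mt-Nd4, mt-Nd6, mt-Co2 and mt-Atp8 after quantile normalization.

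Relative to the mitochondrial total, mt-Nd5 made up 5.6%, 4.46% and 5.77% in control mice and 4.39%, 4.51% and 3.72% in Ntsr2 AKO mice. The share of mt-Nd4l was 1.2%, 0.99% and 1.37% against 1.05%, 0.85% and 0.83%. In both, control 4 lay among the Ntsr2 AKO mice. In 0 of the 13 genes did the shares of the groups fail to overlap.

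**Figure D4:**
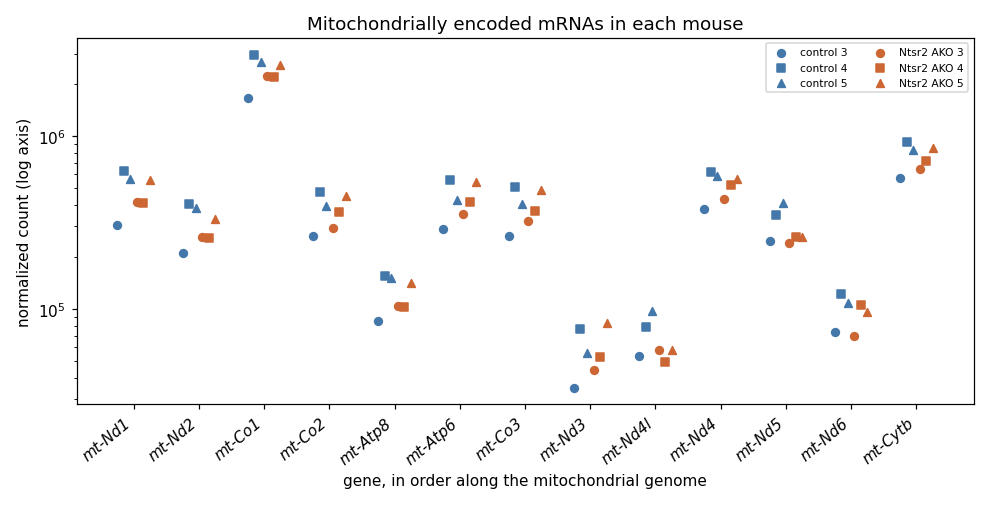
Normalized counts (log axis) of the 13 mitochondrial protein genes in each mouse, in order along the mitochondrial genome; blue is control and orange Ntsr2 AKO, and marker shape gives the number of the mouse. The groups overlap at every gene, and mt-Co1 is the highest throughout.

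Most nuclear members shared 1 pattern between mice. The median deviation of the 80 nuclear members from their 6-mouse mean, on the log2 scale, was -0.34, 0.17 and -0.14 in control 3, 4 and 5 and -0.25, 0.15 and 0.39 in Ntsr2 AKO 3, 4 and 5. Ntsr2 AKO 5 had the highest value in 62 of the 80 nuclear genes, and control 3 the lowest in 50 and Ntsr2 AKO 3 in 18. Complexes I to V each had their lowest median in control 3 and their highest in Ntsr2 AKO 5. The range within a group, 0.51 in control and 0.64 in Ntsr2 AKO mice, exceeded the difference between the group means of 0.20. All genes tested had medians between -0.00322 and 0.0165 in each mouse.

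The mitochondrial mRNAs followed another order. Their median deviation was -0.50, 0.38 and 0.20 in control mice and -0.24, -0.07 and 0.19 in Ntsr2 AKO mice. Control 5 had all 13 mitochondrial genes above their mean but only 23 of 80 nuclear members, and Ntsr2 AKO 4 had 2 of 13 above and 67 of 80. The ratio of mitochondrial to nuclear member reads was 5.66, 7.47 and 7.91 in control mice and 6.63, 5.73 and 6.0 in Ntsr2 AKO mice. Control 3 was the lowest of all 6 mice, so the groups overlapped, and the means of 7.01 ± 1.19 and 6.12 ± 0.46 (SD, n = 3 each) differed by less than the SD of the control mice.

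Other transcripts varied between mice in the same way as the nuclear subunits. The median deviation of 86 cytosolic ribosomal protein genes, a list chosen after the values were seen, was -0.28, 0.21 and -0.15 in control mice and -0.22, 0.10 and 0.32 in Ntsr2 AKO mice. The summed level of 4 erythroid markers (Hba-a1, Hbb-bs, Hbb-bt and Alas2) was 41043, 116474 and 51179 in control mice and 43136, 73015 and 142760.3 in Ntsr2 AKO mice, and all 4 were detected in every mouse. The summed level of 9 brown adipocyte markers was 4298, 9455 and 8835 in control mice and 7835, 9071 and 12758 in Ntsr2 AKO mice. Nuclear subunits, ribosomal proteins and the sums of erythroid and of brown adipocyte markers ranked the 6 mice in the same order. This order ran from control 3 up through Ntsr2 AKO 3, control 5, Ntsr2 AKO 4 and control 4 to Ntsr2 AKO 5. Cidea and Cox8b, the highest of the brown adipocyte markers, each ranked the mice otherwise, as did Ppargc1a. Cox8b is itself a subunit of complex IV. The sums of the other marker lists, such as macrophage and endothelial markers, ranked the mice otherwise. Across the 80 nuclear members, which share the same 6 libraries, the log2 fold change had a Pearson r of -0.37 and a Spearman rho of -0.45 with length, against -0.11 and -0.15 across 15918 genes with a length. The 40 shorter members had a median log2 fold change of 0.26 and the 40 longer ones 0.17. What part blood cells, brown adipocytes or transcript length had in the higher nuclear mean was not tested.

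**Figure D5:**
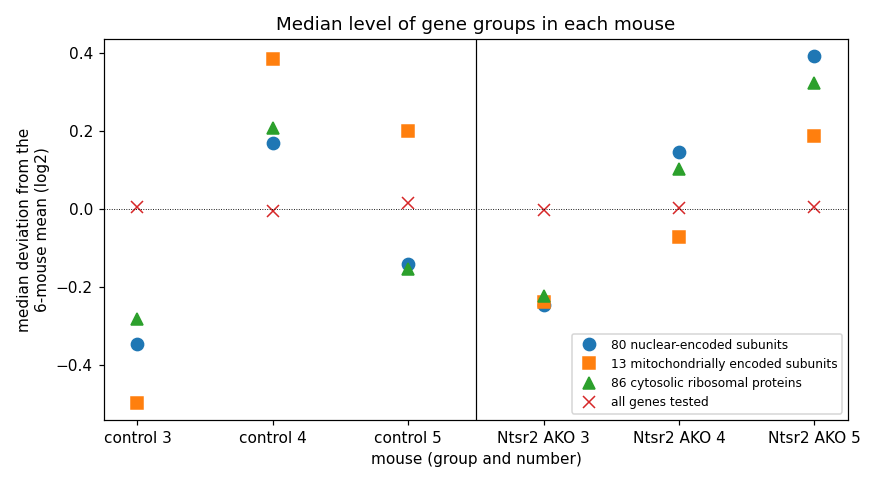
Median deviation from the 6-mouse mean (log2) in each mouse for 80 nuclear subunits, 13 mitochondrial subunits, 86 cytosolic ribosomal proteins and all genes tested; the vertical line separates control from Ntsr2 AKO mice. Nuclear subunits and ribosomal proteins share 1 order from control 3 (-0.34 and -0.28) to Ntsr2 AKO 5 (0.39 and 0.32), and the median of all genes stays near 0.

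The genes that assemble, control and feed the chain were examined as 4 lists. None of their genes passed the adjusted threshold in limma. Of 41 assembly factors tested, 28 were higher in mean (median log2 fold change 0.05), and Coa4, a twin CX9C protein of the intermembrane space, had the smallest p with 134.4, 234.2 and 252.3 in control mice and 260.1, 333.8 and 317.8 in Ntsr2 AKO mice (a log2 change of 0.60 with an SE of 0.29, adjusted p = 0.618 by limma). Of 17 genes of the TCA cycle and pyruvate dehydrogenase, 9 were higher (median 0.04). Suclg2, the GTP-forming succinyl-CoA ligase subunit, had the smallest p (5648, 6501 and 5509 in control and 6460, 6619 and 6582 in Ntsr2 AKO mice), and its log2 fold change was 0.16 (adjusted p = 0.711 by limma). Of 11 genes for cytochrome c, cytochrome c1 and coenzyme Q, 5 were higher (median -0.00466). Cyc1, the cytochrome c1 of complex III, had a log2 fold change of -0.06. Coq5, a methyltransferase of coenzyme Q synthesis, had a log2 fold change of -0.18 (adjusted p = 0.683 by limma).

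Of 19 genes that control mitochondrial biogenesis and mitochondrial DNA expression, 9 had a higher and 10 a lower mean (median log2 fold change -0.07), and Pprc1 had the smallest p. Pprc1, a coactivator of the PGC-1 family, was at 1915, 1631 and 1921 in control mice and at 1193, 949.4 and 907.8 in Ntsr2 AKO mice. Nrf1, a transcription factor that binds many promoters of nuclear OXPHOS genes, was at 1208, 1229 and 1133 in control mice and at 864.0, 852.0 and 790.4 in Ntsr2 AKO mice. The groups did not overlap in either gene, with the control mice on top, as in 2 of the 19 genes (10.5%) against 15.0% of all genes. The log2 fold change of Pprc1 was -0.85 (SE 0.15, adjusted p = 0.499 by limma) and that of Nrf1 -0.51 (SE 0.12, adjusted p = 0.520 by limma). DESeq2 called both (adjusted p = 0.00142 for Pprc1 and 0.0209 for Nrf1), and edgeR's quasi-likelihood test neither (adjusted p = 0.569 for each). DESeq2 called no other gene among the 19 of this list, so that it called 10.5% of the list against 1.36% of all genes, and Nrf1 was named after its values were seen. Ppargc1a, the best known coactivator of biogenesis, was at 385.6, 1204 and 1121 in control mice and at 638.9, 513.1 and 527.3 in Ntsr2 AKO mice, with control 3 below all Ntsr2 AKO mice (a log2 change of -0.53 with an SE of 0.43, adjusted p = 0.758 by limma). Tfam, which packages and helps to transcribe mitochondrial DNA, ran from 1630.0 to 1873 over all mice (a log2 change of 0.06 with an SE of 0.11). Gabpa and Yy1, DNA-binding factors of many OXPHOS promoters, had log2 fold changes of 0.03 and -0.15.

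Promoters of nuclear members were searched for the binding cores of these factors, as a description. Whether the cores bear on the levels in the mice was not tested. RefSeq sequences on GRCm38.p6, from 250 bases before to 50 after the start, matched 66 of the 80 nuclear members with 72 promoters. The NRF1 core GCGCANGCG, on either strand, was in 21 of them (29.2%) against 6.25% of all 32851 promoters in the table. The ETS core CCGGAAG, which GABPA binds, was in 16 (22.2%) against 8.86%, and the YY1 core AAGATGGCG in 9 (12.5%) against 1.4%. At least 1 of the 3 cores was in 38 promoters (52.8%) against 14.8%. The YY1 core lay past the start in 7 of its 9 promoters. A match describes letters and not binding, and the members were not compared with promoters of like base composition or breadth of expression.

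Windows of 150 bases just before the gene are shown for 5 genes, with matches in capitals. Sdha and Uqcrh have the highest normalized counts, not divided by length, of the nuclear members with an NRF1 or an ETS core in this window, and Cox6a1 is set beside Cox7a1 and Cox8b, tissue-restricted subunits of the same complex whose windows hold none of the 3 cores. This lack is not particular to them, since the longer promoters of the widely expressed subunits Cox5a, Cox5b, Cox7a2, Cox7a2l, Cox7b and Cox7c hold none either.
Sdha, chr13:74350281-74350430, minus strand: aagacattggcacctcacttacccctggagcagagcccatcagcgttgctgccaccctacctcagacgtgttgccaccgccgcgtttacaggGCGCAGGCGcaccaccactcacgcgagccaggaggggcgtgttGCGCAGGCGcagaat
Uqcrh, chr4:116075072-116075221, minus strand: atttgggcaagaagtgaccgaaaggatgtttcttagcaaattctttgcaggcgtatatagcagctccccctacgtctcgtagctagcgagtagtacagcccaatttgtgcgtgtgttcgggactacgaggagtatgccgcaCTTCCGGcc
Cox6a1, chr5:115348982-115349131, minus strand: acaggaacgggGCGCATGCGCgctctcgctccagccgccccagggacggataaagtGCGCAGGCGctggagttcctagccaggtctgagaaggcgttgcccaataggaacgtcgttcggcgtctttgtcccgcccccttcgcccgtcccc
Cox7a1, chr7:30183994-30184143, plus strand: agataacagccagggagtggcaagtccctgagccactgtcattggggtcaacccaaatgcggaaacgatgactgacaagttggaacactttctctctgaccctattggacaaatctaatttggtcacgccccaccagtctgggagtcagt
Cox8b, chr7:140900447-140900596, minus strand: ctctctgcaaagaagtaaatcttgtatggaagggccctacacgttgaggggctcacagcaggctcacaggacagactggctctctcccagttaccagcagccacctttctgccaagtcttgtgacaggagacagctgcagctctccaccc
Of these members, Sdha had a log2 fold change of 0.04 and Uqcrh of 0.30 (SE 0.28), with 8378, 14495 and 10309 in control mice and 9811, 13308 and 17794 in Ntsr2 AKO mice. Uqcrc1, the member with the lower and separate values, has NRF1 cores after its start and none in such a window.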

How the data were processed

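RNA-seq of WATs was made by the authors from RNA with poly-A tails. Per the labels and the methods, reads were processed with Trimmomatic, HISAT2, StringTie and DESeq2, with mm10 named as the build in the submitters' processing notes. The deposited table is a signal table of normalized counts, the counts divided by a size factor per mouse. Division of each column by its step gave whole reads for 100% of the values (tolerance 0.01).

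Genes with a mean of at least 10 (16157) were tested as log2(normalized count + 1) with limma 3.58.1 in R 4.3.3 (trend, 6 mice, no covariate, Benjamini-Hochberg threshold 0.05). edgeR 4.0.16 and DESeq2 1.42.0 on the recovered reads were alternatives. Fold changes of low genes are understated on this scale. The procedures were tested on simulated counts with larger fold changes than any member had and less spread than many members had. That test therefore does not measure what could be found among the members. With 3 mice a group, precision is given by the spread between mice, from which counting error was not separated. Labels do not say whether littermates were used, and p-values measure the spread between these samples. No columns were duplicates.

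Members and lists were chosen with earlier results of these data known. Named genes were those past the threshold, those with the smallest p in each direction per complex and per list, the most abundant per complex, the mitochondrial genes and the tissue isoforms. Lengths (the middle principal transcript) and positions are from GENCODE M21, and promoters from RefSeq. The alternatives were other pseudocounts, filters, scalings, tools, a replicate block, a muscle score and the omission of mice. Some members are not reported here by name.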

Additional observations from a re-analysis of the deposited data

How the results depend on the processing

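The number of members past the adjusted threshold was 0 under all 19 alternatives. The count over all genes was 1, and it was 0 without the filter, with scaling by the nuclear-encoded total, without the trend, in edgeR, with the replicate block, with the muscle score as covariate, and when any 1 mouse was left out (0 to 0), while DESeq2 gave 219. Without the 3 mice with the most muscle transcripts, chosen after seeing the data, the nuclear median was -0.18 against 0.21. With the muscle score as covariate and all mice kept it was 0.19. With 1 mouse left out the nuclear median ran from 0.05 to 0.39 and the mitochondrial one from -0.28 to 0.10. Members with an unadjusted limma p under 0.05 numbered 14 of 93 without Ntsr2 AKO 3 (all genes 10.5%) and 4 without control 3 (8.42%). They numbered 2 without control 4 (8.62%), 1 with the block (8.06%) and 1 with the muscle score (8.91%). Of 32 named members, 5 changed sign after quantile normalization and 5 with nuclear scaling, all of them mitochondrial, 4 to 7 when 1 mouse was left out, and 17 without the 3 mice with the most muscle transcripts, where 14 moved by more than their within-group SD. Same-numbered mice had correlations of deviations of 0.45, -0.24 and 0.41, and differently numbered mice of -0.52 to 0.26. Since 1 of the 3 same-numbered values is not above 0.1, and neither labels nor methods tie the numbers to a shared litter or day, the numbers were not treated as pairs. The replicate block lowered the count of genes called from 1 to 0. The cause of these changes was not tested. Counting error was not separated from the spread between mice.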

Other observations

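Of 8 brown adipocyte markers tested, 5 had a higher and 3 a lower mean log2 level, and 1 (12.5%) did not overlap between the groups, against 15.0% of all genes. That marker, Cidea, a lipid droplet protein, was named after its values were seen and was at 2134, 4167 and 3345 in control mice and at 4513, 5122 and 6410.3 in Ntsr2 AKO mice, with the Ntsr2 AKO mice on top (a log2 change of 0.77 with an SE of 0.26, adjusted p = 0.558 by limma). The lower ones were Ppargc1a, Cox7a1 and Zic1, with log2 changes of -0.53, -0.32 and -0.30. Dio2 reached at most 179.5 and Otop1 ran from 277.2 to 759.0 over the 6 mice, and both overlapped.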
